A study of Mus musculus with 96 samples.

Results

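MHC class II genes were followed in hepatocytes and liver macrophages (LMs) of mice on a high-fat, high-sucrose diet. The 7 genes were taken by gene symbol from the 25095 symbols of the deposited tables, 1 transcript per gene (the one with the highest mean level), and comprised the chains H2-Aa, H2-Ab1 and H2-Eb1, the invariant chain Cd74, the peptide editors H2-DMa and H2-DMb1, and the transactivator Ciita. Total RNA was sequenced in 96 libraries, 3 for each of 32 groups of genotype, cell type and time of day. Mice were killed at Zeitgeber time (ZT) 4, 10, 16 or 22, with 12 hours of light, 12 hours of dark and lights off at ZT12. The comparison of RevDKO with Control mice addressed what hepatocyte loss of REV-ERBα and REV-ERBβ, repressors in the circadian clock, does to either cell type, and that of RevScapTKO with RevDKO mice addressed the part of SCAP, the chaperone that activates the lipid regulator SREBP.

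All mice were male C57BL/6J, were injected with virus at 8 weeks of age and then ate the diet (D12492) for 4 weeks. Control mice carried floxed alleles and received AAV-TBG-GFP, which does not cut them. Knockout mice received AAV-TBG-CRE, in which the hepatocyte promoter of thyroxine-binding globulin drives Cre, and lost both REV-ERB genes (RevDKO, ReverbhDKO in the genotype labels), both REV-ERB genes and Scap (RevScapTKO, Reverb/ScaphTKO) or Scap alone (ScapKO, ScaphKO). The macrophage libraries therefore came from mice whose deletion was aimed at hepatocytes, and Cre activity in macrophages was not tested. Scap was 119 ± 53.1, 172 ± 59.9 and 114 ± 25.1 RPKTM (SD, n = 12 each) in Control, RevDKO and RevScapTKO LMs. Control, RevDKO and RevScapTKO libraries of a cell type shared 1 table, and ScapKO libraries had a table per cell type with no Control of their own, so no ScapKO level was compared with another genotype. Nothing in the labels said that the libraries of a group came from separate mice (the methods call them biological replicates), and p-values measure the spread between these libraries.

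MHC class II molecules are heterodimers of an α and a β chain that display peptides from the endosome to CD4+ T cells. H2-Aa and H2-Ab1 encode the 2 chains of I-A, and H2-Eb1 encodes the β chain of I-E, whose α chain gene is defective in C57BL/6 mice. Cd74 encodes the invariant chain, which plugs the groove and takes the dimer to the endosome, H2-DMa and H2-DMb1 encode the editor that swaps its remnant for peptide, and Ciita encodes the coactivator that switches the whole set on. In liver the genes are best known from Kupffer cells, dendritic cells and B cells, and hepatocytes have little of their products at rest.

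Class II promoters share an X box, an X2 box and a Y box just upstream of the gene start, where the RFX complex, CREB and NF-Y hold CIITA. Of the 7 genes, H2-Aa, H2-Eb1, H2-DMb1 and H2-DMa matched RefSeq's promoter table (GRCm38.p6), and H2-Ab1, Cd74 and Ciita were not in it. The 3 stretches below are shown because each holds letters of a Y box and of 1 of the X boxes, and none held all 3: bases 110 to 41 before the gene start, 5′ to 3′ on the gene's strand, at chr17:34287864-34287933 (minus strand) for H2-Aa, chr17:34305757-34305826 (plus) for H2-Eb1 and chr17:34153081-34153150 (plus) for H2-DMb1. Capitals mark matches to the letters searched on both strands: ATTGG, which is the core of a Y box, CTGATTGG, which contains it, AACNGATG for part of an X box and TGACGTCA for an X2 box.
H2-Aa: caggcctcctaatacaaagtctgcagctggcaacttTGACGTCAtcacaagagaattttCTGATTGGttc
H2-Eb1: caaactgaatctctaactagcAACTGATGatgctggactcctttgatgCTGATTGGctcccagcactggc
H2-DMb1: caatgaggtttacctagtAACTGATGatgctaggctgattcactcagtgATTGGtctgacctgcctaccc

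The CTGATTGG match began 51 bases before the start of H2-Aa and 62 bases before that of H2-Eb1, and the bare ATTGG of H2-DMb1 61 bases before its start. The AACNGATG match lay upstream of it, at −89 in H2-Eb1 and at −92 in H2-DMb1, and TGACGTCA at −74 in H2-Aa. Of 32851 promoters of 300 bases, 37.4% held ATTGG, 4.1% CTGATTGG, 2.32% AACNGATG and 1.79% TGACGTCA. Neither of the 2 H2-DMa promoters held the longer letters, and 1 of them held ATTGG at −198. A match describes the letters only.

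In the files' own build, mm9, 5 of the 7 genes lie close together on chromosome 17. H2-DMa runs from 34262463 to 34276046 and H2-DMb1 from 34290136 to 34297174, both on the plus strand. H2-Ab1 (34400172 to 34406363, plus), H2-Aa (34419689 to 34424768, minus) and H2-Eb1 (34442812 to 34453619, plus) follow. Cd74 is on chromosome 18 (60963503 to 60972306, plus), where it overlaps the microRNA gene Mir5107 by 88 bases, and Ciita is on chromosome 16 (10480165 to 10527733, plus). H2-DMa and Cd74 had 2 transcripts each in the tables and Ciita 5, whose values differed within a library by up to 1.4, 0.12 and 0.41 on the log2 scale in the hepatocyte table.

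Levels are in RPKTM (RPKM times 10, reads scaled to transcript length and library size), already quantile normalized by the authors within each table, and depth per library is unknown. Clec4f, a Kupffer cell marker, stood between 62.0 and 1704 RPKTM in the hepatocyte libraries of the 3 genotypes and between 669 and 7571 in their macrophage libraries. Alb, the main hepatocyte product, was at least 298478 RPKTM in every hepatocyte library of the 3 genotypes and at least 15656 in every macrophage library, so that each set held transcripts of the other cell type. The ScapKO hepatocyte libraries carry a macrophage entry in the cell type label, and were taken as hepatocyte from their titles; their Alb (196187 to 908028) and Clec4f (135 to 1024) levels fitted the title. The extraction label names whole liver as an RNA source and does not name hepatocytes, whereas the methods describe isolated cells. Scap was lower in every RevScapTKO hepatocyte library (82.8 to 299) than in any RevDKO (321 to 733) or Control (395 to 698) library. Nr1d1 and Nr1d2, the REV-ERB genes, were not lower in RevDKO hepatocytes (138 ± 108 and 312 ± 116 RPKTM, SD, n = 12) than in Control hepatocytes (90.7 ± 119 and 228 ± 141), so directions below are those of the libraries labelled RevDKO.

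In hepatocyte libraries, the class II genes were higher in RevScapTKO than in RevDKO or Control mice, and no difference between RevDKO and Control mice passed the test. Averaged over the day, 5 of the 7 genes rose from RevDKO to RevScapTKO (limma adjusted p under 0.05), where 13.5% of all 13326 genes tested rose and 26.2% passed in either direction. Against Control, 6 of the 7 rose, where 17.3% of all genes rose and 35.9% passed in either direction. RevDKO against Control gave 0 of 7 calls, where 4.43% of all genes passed, and 0 of 7 at an unadjusted p under 0.05. Changes are differences in mean log2(RPKTM + 1), which understates the change of low genes, and the median change of all genes was −0.03, −0.04 and −0.01 in the 3 comparisons, against 0.94, 0.90 and 0.11 for the 7 genes. All 7 passed the filter on low values (at least 3 libraries over 5 RPKTM) in all 4 tables.

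The I-A α chain gene H2-Aa stood at 6.65, 33.1 and 92.9 RPKTM (lowest, median and highest of 12 libraries) in Control hepatocytes, at 15.6, 37.6 and 70.8 in RevDKO hepatocytes and at 35.9, 81.1 and 180 in RevScapTKO hepatocytes. The ranges overlapped, but every RevScapTKO library was above the Control median. H2-Aa rose by 1.21 ± 0.24 (SE) log2 units from RevDKO to RevScapTKO (limma adjusted p = 0.000424) and by 1.33 ± 0.24 from Control (adjusted p = 7.85e-05). Its partner H2-Ab1 ran from 8.75 over 28.4 to 75.1 RPKTM in Control, from 8.60 over 30.1 to 61.7 in RevDKO and from 22.3 over 51.7 to 138 in RevScapTKO hepatocytes. H2-Ab1 rose by 0.94 ± 0.23 against RevDKO (limma adjusted p = 0.00273) and 0.90 ± 0.23 against Control (adjusted p = 0.00268). The I-E β chain gene H2-Eb1 ran from 7.08 over 19.6 to 58.7 RPKTM in Control, from 9.51 over 24.3 to 39.6 in RevDKO and from 20.7 over 45.7 to 125 in RevScapTKO hepatocytes. It rose by 1.09 ± 0.20 against RevDKO (limma adjusted p = 0.000193) and 1.3 ± 0.20 against Control (adjusted p = 9.74e-06).

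Cd74, the invariant chain, had the highest level of the 7 genes in every library of every set, and made up 44.8% ± 5.70 (SD, n = 12) of their summed level in Control hepatocytes. It stood at 22.2, 64.0 and 217 RPKTM (lowest, median and highest) in Control, at 26.9, 87.3 and 171 in RevDKO and at 91.8, 196 and 472 in RevScapTKO hepatocytes. All 12 RevScapTKO libraries were above the median of either other genotype, and 7 of them were above the highest RevDKO library. Cd74 rose by 1.28 ± 0.24 log2 units against RevDKO (limma adjusted p = 0.000248) and by 1.39 ± 0.24 against Control (adjusted p = 4.84e-05).

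The peptide editor genes were low in hepatocyte libraries and moved less clearly. H2-DMa stood at 1.14, 6.09 and 9.99 RPKTM in Control, at 1.70, 6.10 and 10.8 in RevDKO and at 4.32, 8.60 and 24.8 in RevScapTKO hepatocytes. It rose by 0.75 ± 0.24 against Control (limma adjusted p = 0.0156), and the difference from RevDKO was 0.52 ± 0.24 (adjusted p = 0.107). H2-DMb1 stood at 0.633, 2.19 and 12.6 RPKTM in Control, at 0, 3.14 and 4.92 in RevDKO and at 0.433, 6.13 and 12.6 in RevScapTKO hepatocytes. Neither its difference from RevDKO (0.81 ± 0.34, limma adjusted p = 0.0752) nor that from Control (0.50 ± 0.34, adjusted p = 0.256) passed the test. Both genes sat near the 5 RPKTM floor, where a change on the log2(RPKTM + 1) scale is compressed.

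Ciita, on which the other genes depend for their expression, stood at 1.40, 7.78 and 13.4 RPKTM in Control, at 3.45, 7.91 and 13.1 in RevDKO and at 5.77, 12.4 and 22 in RevScapTKO hepatocytes. It rose by 0.71 ± 0.23 against Control (limma adjusted p = 0.0160) and by 0.62 ± 0.23 against RevDKO (adjusted p = 0.0448). The second call was lost when any 1 of 16 of the 36 libraries was left out, with changes of 0.50 to 0.64 and an adjusted p of at most 0.0990 in those fits.

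**Figure D1:**
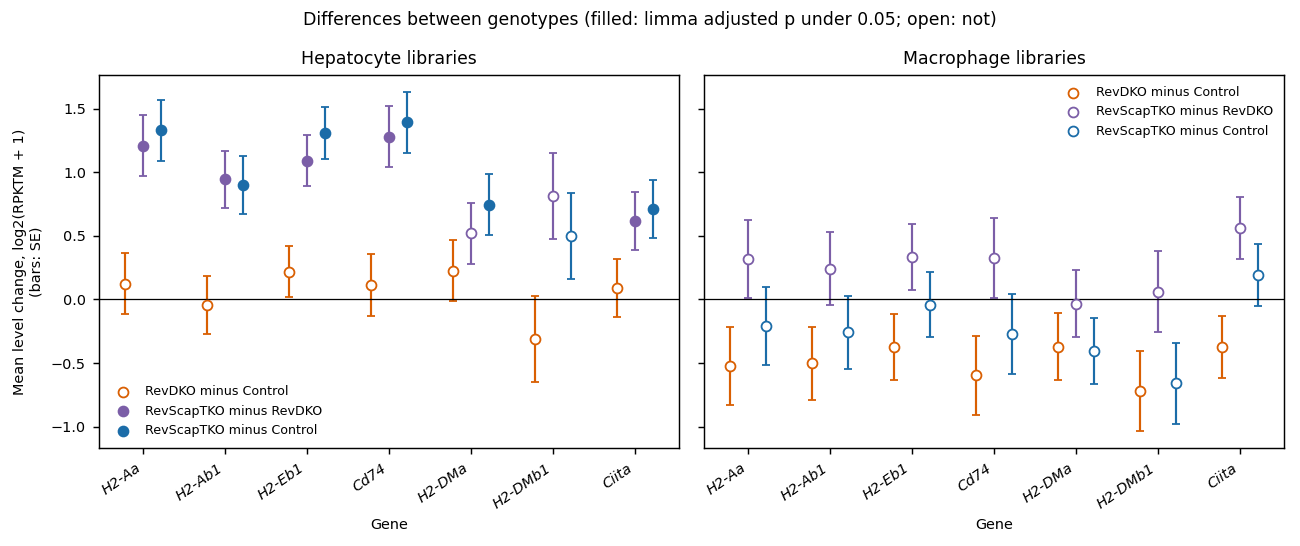
Mean level change of each gene between genotypes, in log2(RPKTM + 1), in hepatocyte (left) and macrophage (right) libraries; points are limma estimates, bars are SE, and filled points passed an adjusted p of 0.05. The RevScapTKO contrasts of the left panel lie between 0.50 and 1.39 with 11 of 14 filled, and all 21 points of the right panel are open.

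Kupffer cell markers moved with the class II genes in these libraries. All 10 markers on the list (Clec4f, Timd4, Vsig4, Adgre1, Cd5l, Marco, Csf1r, C1qa, C1qb and C1qc) rose in RevScapTKO hepatocyte libraries against RevDKO (median change 1.09) and against Control (1.21), and none passed against Control in RevDKO. Clec4f, a Kupffer cell lectin, rose by 1.28 ± 0.22 log2 units against RevDKO (limma adjusted p = 7.39e-05), close in size to Cd74. The summed level of the list ran from 238 to 3171 RPKTM (median 884) in Control, from 404 to 2428 (median 1080) in RevDKO and from 936 to 6246 (median 2860) in RevScapTKO hepatocyte libraries. The log2 ratio of the mean of H2-Aa, H2-Ab1, H2-Eb1 and Cd74 to the mean of the 10 markers was −1.02 ± 0.28 in Control, −1.0 ± 0.38 in RevDKO and −1.02 ± 0.42 in RevScapTKO libraries (SD, n = 12 each). With the Kupffer marker level as a covariate, which itself differed between these genotypes, 0 of 7 genes passed in either RevScapTKO comparison, with changes of −0.31 to 0.34 against RevDKO and −0.72 to 0.49 against Control. In such bulk libraries, fewer or more cells of a type and less or more RNA per cell cannot be told apart.

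Markers of dendritic cells and B cells, which also carry class II, were lower or moved less. Of the 9 recruited monocyte or macrophage markers, 6 were high enough to test, and this statement does not cover them. Of the dendritic cell markers, 3 of 9 were high enough to test and 2 of them rose in either RevScapTKO comparison, while Cd209a and Ccr7 had a median of 0, and the summed level ran from 24.4 to 74.8 RPKTM in Control and from 36.4 to 98.3 in RevScapTKO libraries. Of the B cell markers, 2 of 9 could be tested and 0 passed, and the summed level ran from 10.2 to 33.4 RPKTM in Control and from 13.9 to 23.6 in RevScapTKO libraries. With the dendritic cell markers as a covariate, 1 of 7 class II genes passed against Control and 0 of 7 against RevDKO. Among markers of other liver cells, 6 of 7 stellate cell genes rose in either RevScapTKO comparison. So did 6 of 8 sinusoidal endothelial genes against RevDKO and 7 of 8 against Control. The part of cell composition in the class II rise beyond these values was not tested.

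At single time points, the differences of RevScapTKO from Control hepatocytes that passed the test were at ZT4 and ZT10, in the light phase. At ZT4, 5 of the 7 genes were higher in RevScapTKO than in Control hepatocytes, where 9.27% of all genes were higher and 18.9% passed in either direction. Cd74 at ZT4 was 22.2, 61.0 and 42.6 RPKTM in the Control libraries and 102, 152 and 215 in the RevScapTKO libraries, a rise of 1.92 (limma adjusted p = 0.00686). H2-Aa at ZT4 was 6.65, 16.6 and 18.7 RPKTM in Control and 35.9, 50.8 and 85.3 in RevScapTKO libraries, a rise of 1.99 (adjusted p = 0.00515). H2-Ab1, H2-Eb1 and Ciita also rose at ZT4, by 1.5, 1.70 and 1.39 (limma adjusted p = 0.0223, 0.00464 and 0.0326), and the libraries of the 2 genotypes did not overlap for 6 of the 7 genes, where 12.7% of all genes lay higher without overlap. At ZT10, 1 of 7 passed, where 2.03% of all genes were higher and 4.35% passed in either direction: H2-Eb1 was 13.8, 9.69 and 9.84 RPKTM in Control and 28.9, 92.2 and 29.6 in RevScapTKO libraries, a rise of 1.88 (limma adjusted p = 0.00373). At ZT16 and ZT22, 0 of 7 passed, where 3.24% and 3.62% of all genes did. Over all 4 times, 12 of the 28 pairs had an unadjusted p under 0.05. These 6 calls at single times fell to 3 without Control ZT4 replicate 1 and to 3 without RevScapTKO ZT4 replicate 3.

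Against RevDKO, 0 of the 28 pairs of gene and time point passed, where 9.28%, 0.908%, 1.37% and 2.35% of all genes passed at ZT4, ZT10, ZT16 and ZT22, although the libraries did not overlap for 11 of the 28 pairs, all higher in RevScapTKO (9.86% of the pairs of all genes), and 12 had an unadjusted p under 0.05. Those 11 pairs were 3 at ZT4, 2 at ZT10, 5 at ZT16 and 1 at ZT22. The count rose to at most 3 when 1 library was left out (RevScapTKO ZT4 replicate 1). RevDKO against Control gave 0 of 28 calls, where 0.585%, 1.2%, 0.300% and 0.488% of all genes passed, and 1 had an unadjusted p under 0.05. RevDKO and Control libraries did not overlap for 3 of the 28 pairs, no larger a share than the 15.0% among the pairs of all genes. Their values are given as description only, and 2 of the 3 were of H2-Eb1, in opposite directions. At ZT4 it was 15.5, 24.3 and 23.6 RPKTM in RevDKO against 7.08, 9.40 and 8.13 in Control libraries, and at ZT22 it was 25.6, 33.1 and 39.6 against 51.5, 58.7 and 45.7. H2-DMb1 was also lower in every RevDKO library at ZT22 (4.18, 3.18 and 1.5 RPKTM) than in any Control library (11.3, 6.65 and 7.47). These RevDKO values of H2-DMb1 lay under the 5 RPKTM floor.

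**Figure D2:**
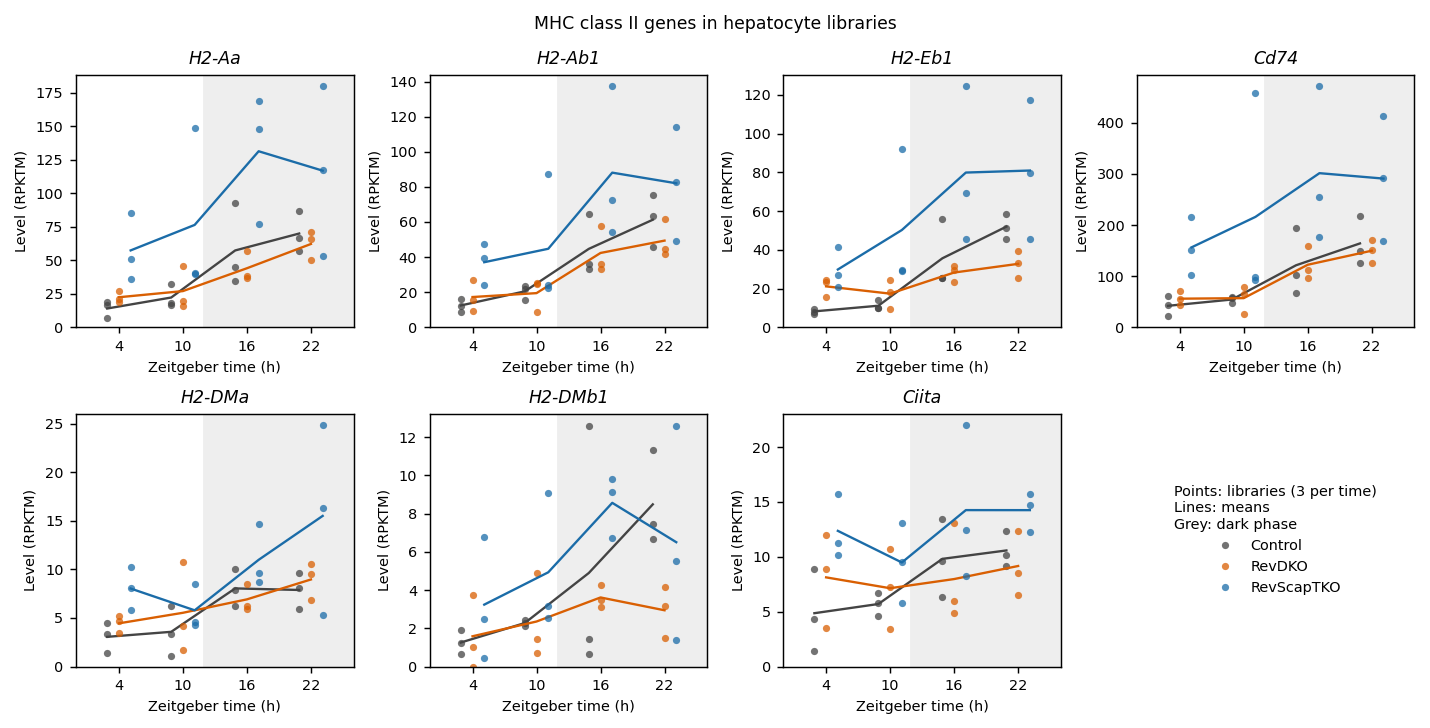
Level of the 7 genes in RPKTM (linear axes from 0) against Zeitgeber time in Control, RevDKO and RevScapTKO hepatocyte libraries; points are libraries (3 per time, genotypes offset sideways), lines are means and grey marks the dark phase. Control levels of H2-Aa, H2-Ab1, H2-Eb1 and Cd74 are higher at ZT16 and ZT22 than at ZT4 and ZT10 in every library, and RevScapTKO points lie highest at most times.

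In Control hepatocyte libraries the class II genes followed the time of day, with higher levels in the dark. H2-Aa was 6.65, 16.6 and 18.7 RPKTM at ZT4, 18.1, 16.4 and 32.0 at ZT10, 34.3, 44.7 and 92.9 at ZT16 and 86.5, 66.7 and 56.6 at ZT22. All 6 dark phase libraries were above all 6 light phase libraries, as they were for H2-Ab1, H2-Eb1 and Cd74, where 2.83% of all genes were. Between the lowest and the highest of the 4 time point means the ratio was 5.0 for H2-Aa, 4.94 for H2-Ab1, 6.34 for H2-Eb1 and 3.91 for Cd74. It was 2.63 for H2-DMa and 2.18 for Ciita, whose dark phase libraries exceeded every light phase library in 5 of 6 cases.

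Rhythm was called by JTK_CYCLE, a rank test against 24 h and 18 h patterns, on a series entered 2 times, with a best period of 24 h and a ratio of time point means over 1.5. This follows the methods of the study. Entering the series again makes p smaller without adding data, and the text therefore also gives calls with the series entered once. By the first rule, 6 of the 7 genes were rhythmic in Control hepatocytes, all with a peak at ZT19, where 28.1% of all transcripts tested were. Entered once, 5 of 7 were, where 10.4% of transcripts were (H2-Aa, JTK_CYCLE p = 0.0152 from its exact null distribution). By a 24 h cosine fitted with limma, H2-Aa, H2-Ab1, H2-Eb1 and Cd74 passed, where 8.29% of genes did. H2-Eb1 had the largest fitted swing of the 7, 2.86 log2 units from trough to peak at ZT19.2 (limma adjusted p = 0.000125), and Cd74 one of 2.14 (adjusted p = 0.0133). H2-DMb1 was not called with the series entered 2 times (JTK_CYCLE p = 0.271 from the exact null distribution), and its time point means were at most 8.49 RPKTM.

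In RevDKO hepatocytes the 5 genes called rhythmic also peaked at ZT19, with smaller ratios of time point means than in Control, and no gene passed a test of the difference. By the first rule 5 of 7 genes were rhythmic, where 28.5% of transcripts were, and 2 of 7 with the series entered once (H2-Ab1 and Cd74), where 8.79% were. The cosine fit called H2-Ab1 alone, where 4.08% of genes passed. H2-Eb1 had a ratio of 1.89 in RevDKO and 6.34 in Control libraries, H2-Aa 2.78 and 5.0, H2-Ab1 2.87 and 4.94, and Cd74 2.68 and 3.91. A test of the difference in the cosine terms called 0 of 7 (1 at an unadjusted p under 0.05), where 0.203% of all genes passed. In RevScapTKO hepatocytes 5 of 7 were rhythmic by the first rule, where 19.9% of transcripts were, and 0 of 7 with the series entered once, where 2.76% were, or by the cosine fit (3 at an unadjusted p under 0.05), where 0.683% of genes passed. Cd74 was 102, 152 and 215 RPKTM at ZT4, 98.5, 458 and 91.8 at ZT10, 177, 256 and 472 at ZT16 and 168, 413 and 291 at ZT22 in RevScapTKO libraries, so that ZT10 replicate 2 stood among the dark phase values. The difference in rhythm from RevDKO passed for 0 of 7 genes, also unadjusted, and for 0 of all 13326. The count of 5 fell to 2 without ZT10 replicate 1, ZT10 replicate 3 or ZT22 replicate 3, and to 3 without any 1 of 5 other libraries (ZT4 replicates 1 and 2, ZT16 replicates 2 and 3, ZT22 replicate 2).

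The Kupffer cell markers were also higher in the dark phase in the Control hepatocyte libraries. By the first rule, 10 of 10 were rhythmic in Control, 9 of 10 in RevDKO and 10 of 10 in RevScapTKO hepatocyte libraries, all with peaks from ZT13 to ZT22. In Control hepatocyte libraries their summed level was 238 to 663 RPKTM at ZT4, 527 to 805 at ZT10, 963 to 2396 at ZT16 and 2189 to 3171 at ZT22. The sinusoidal endothelial markers were rhythmic in 8 of 8 cases in Control libraries, all with peaks in that range, and the stellate cell markers in 6 of 7, against 2 of 10 hepatocyte markers. In the same order the counts were 8 of 8, 5 of 7 and 2 of 10 in RevDKO hepatocyte libraries. They were 1 of 8, 1 of 7 and 1 of 10 in RevScapTKO hepatocyte libraries. The log2 ratio of the 4 higher class II genes to the Kupffer markers in Control libraries was −0.91 ± 0.31 at ZT4, −0.88 ± 0.06 at ZT10, −0.94 ± 0.14 at ZT16 and −1.33 ± 0.33 at ZT22 (SD, n = 3 each).

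**Figure D3:**
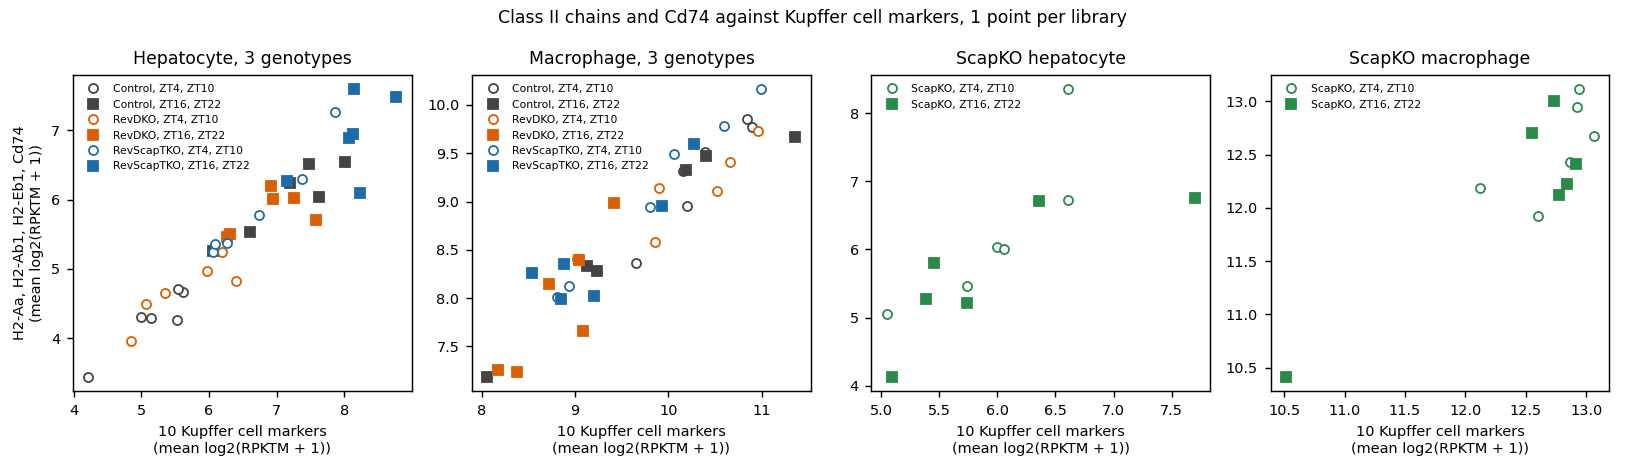
Mean log2(RPKTM + 1) of H2-Aa, H2-Ab1, H2-Eb1 and Cd74 against that of 10 Kupffer cell markers, 1 point per library, in each table; open circles are ZT4 and ZT10, filled squares ZT16 and ZT22. In the hepatocyte and macrophage tables of 3 genotypes the points lie along a rising line, and in the panel of ScapKO hepatocytes a single library (ZT4 replicate 2) sits above the others.

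In macrophage libraries the chain genes and Cd74 were among the higher transcripts, Ciita, H2-DMa and H2-DMb1 lay lower, and no difference between genotypes passed the test. Cd74 stood at or above the 96.8th percentile of expressed genes in every one of the 36 libraries, and H2-Aa at or above the 92.1st, whereas the medians of Ciita in the 3 genotypes ran from the 54.5th to the 66.3rd and those of H2-DMb1 from the 56.5th to the 74.1st. Cd74 ran from 291 over 1586 to 3064 RPKTM (lowest, median and highest of 12) in Control LMs, from 327 over 898 to 2299 in RevDKO LMs and from 608 over 992 to 3284 in RevScapTKO LMs. H2-Aa ran from 167 over 668 to 1021 RPKTM in Control, from 146 over 383 to 1066 in RevDKO and from 239 over 441 to 1359 in RevScapTKO LMs. The groups overlapped across most of their ranges for both genes.

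RevDKO against Control LMs gave 0 of 7 calls, where 0.574% of the 13947 genes tested passed, with changes of −0.72 to −0.37 for all 7 genes and −0.04 for the median of all genes. The change of Cd74 was −0.60 ± 0.31 (limma adjusted p = 0.391) and that of H2-DMb1, the 1 gene with an unadjusted p under 0.05, −0.72 ± 0.32 (limma adjusted p = 0.311). RevScapTKO against RevDKO gave 0 of 7, where 3.0% of all genes passed, with changes of −0.03 to 0.57, of which Ciita had the highest and the 1 unadjusted p under 0.05 (0.57 ± 0.24, limma adjusted p = 0.194). RevScapTKO against Control gave 0 of 7, where 3.76% passed, with changes of −0.66 to 0.19, and 1 gene had an unadjusted p under 0.05, H2-DMb1 (limma adjusted p = 0.276). The Kupffer marker list showed a median change of −0.54 in RevDKO and −0.56 in RevScapTKO against Control, with 0 of 10 called in either, and its summed level had medians of 17771, 9009 and 9815 RPKTM in Control, RevDKO and RevScapTKO LMs.

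At ZT10, 5 of the 7 genes were lower in every RevDKO LM library than in any Control LM library, where 9.05% of all genes were, and no class II gene passed the test (0.0789% of all genes did). H2-Ab1 at ZT10 was 559, 472 and 400 RPKTM in Control and 206, 320 and 306 in RevDKO LMs, and H2-Eb1 was 524, 421 and 386 against 230, 306 and 323. H2-DMa, H2-DMb1 and Ciita were the others. At ZT22, where the groups overlapped for all 7 genes, the changes of H2-Aa, H2-Ab1, Cd74 and Ciita (−1.04, −1.09, −1.09 and −1.15) were larger than at ZT10 (−0.72, −0.79, −0.91 and −0.64). The summed Kupffer markers at ZT10 were 17668 to 32271 RPKTM in Control and 7549 to 18862 in RevDKO LMs. No pair of gene and time point passed between any 2 genotypes in LMs, and at an unadjusted p under 0.05 there were 1 (Ciita at ZT22), 1 and 0 of 28 for RevDKO against Control, RevScapTKO against RevDKO and RevScapTKO against Control. At ZT4, ZT10, ZT16 and ZT22 the shares of all genes that passed were 0.00717%, 0.0789%, 0.0430% and 0% for RevDKO against Control, 0.172%, 0.151%, 0.215% and 0.301% for RevScapTKO against RevDKO, and 0.330%, 0.201%, 0.186% and 0.136% for RevScapTKO against Control. When a library was left out, 1 pair passed for RevDKO against Control without Control ZT22 replicate 3, the library with the lowest Cd74 of the Control LMs (291 RPKTM, against 706 to 3064 in the others).

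The low members of the set were well measured in LMs. H2-DMa ran from 13.2 over 78.2 to 133 RPKTM in Control, from 20.6 over 48.6 to 127 in RevDKO and from 25.1 over 55.0 to 107 in RevScapTKO LMs. H2-DMb1 ran from 12.6 over 51.3 to 82.8, from 7.34 over 28.3 to 58.1 and from 13.5 over 25.6 to 68.7 RPKTM in the same order. Ciita ran from 14.8 over 35.5 to 63.0 RPKTM in Control, from 11.3 over 24 to 58.7 in RevDKO and from 17.9 over 36.8 to 69.0 in RevScapTKO LMs, and at ZT10 every RevScapTKO library (44.7, 55.6 and 51.7) was above every RevDKO library (27.9, 25.9 and 23.9), which held for 1 of the 7 genes and 4.37% of all genes.

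**Figure D4:**
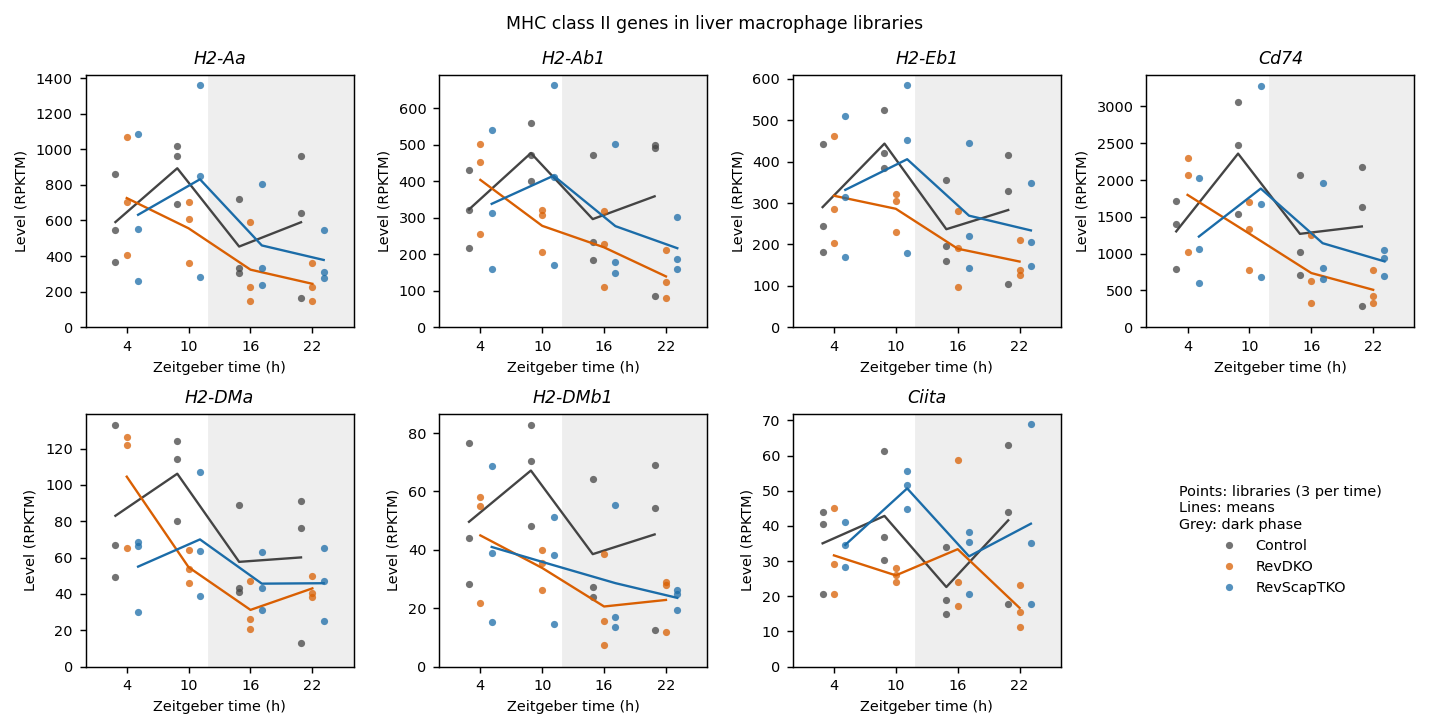
Level of the 7 genes in RPKTM (linear axes from 0) against Zeitgeber time in Control, RevDKO and RevScapTKO macrophage libraries; points are libraries (3 per time, genotypes offset sideways), lines are means and grey marks the dark phase. Libraries of 1 group spread widely, as for Control Cd74 at ZT22 (2183, 1636 and 291 RPKTM), and RevDKO means of H2-Aa and Cd74 fall from ZT4 to ZT22.

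Rhythm in LMs was called in RevDKO mice and not in Control or RevScapTKO mice. With the series entered 2 times, 0 of 7 genes were rhythmic in Control LMs, where 19% of transcripts were, 5 of 7 in RevDKO LMs, where 28.2% were, and 0 of 7 in RevScapTKO LMs, where 14.8% were. Cd74 in RevDKO LMs was 2074, 2299 and 1021 RPKTM at ZT4, 774, 1706 and 1333 at ZT10, 630, 1252 and 327 at ZT16 and 421, 333 and 772 at ZT22. The 5 rhythmic genes (H2-Aa, H2-Ab1, H2-Eb1, Cd74 and H2-DMa) peaked at ZT4 or ZT7, in the light phase, whereas the hepatocyte libraries of the same genotype peaked at ZT19. With the series entered once, 1 of 7 (H2-DMa) was rhythmic in RevDKO LMs, where 5.38% of transcripts were, and 0 of 7 in Control and RevScapTKO LMs, where 2.56% and 2.29% were. The cosine fit called 0 of 7 in all 3 genotypes, where 0.0502%, 2.53% and 0.0789% of genes passed in Control, RevDKO and RevScapTKO LMs, with an unadjusted p under 0.05 for 0, 3 and 0 of the 7, and the difference in rhythm of RevDKO from Control passed for 0 of 7, also unadjusted, and for 0 of all genes tested. The difference of RevScapTKO from RevDKO LMs passed for 0 of 7 too, also unadjusted (limma adjusted p = 0.998 for each). In Control LMs the count was 3 without ZT22 replicate 1 and 1 without ZT4 replicate 3. In RevScapTKO LMs it was 1 without ZT22 replicate 2.

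Of the Kupffer markers, 0 of 10 were rhythmic in Control, 9 of 10 in RevDKO and 0 of 10 in RevScapTKO LMs. Their summed level in RevDKO LMs was 12768 to 32594 RPKTM at ZT4 and 4022 to 7295 at ZT22. In 7 of 10 cases hepatocyte markers were rhythmic in RevScapTKO LMs, with peaks from ZT13 to ZT22. The part of cell composition in the class II rhythm was not tested.

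ScapKO libraries have no control in their tables and are described alone. In ScapKO LMs Cd74 ran from 3433 over 16278 to 24710 RPKTM, H2-Aa from 1125 over 5051 to 7937, H2-Ab1 from 894 over 3138 to 5667 and H2-Eb1 from 995 over 3629 to 6271. The lowest library was ZT22 replicate 2 for all 7 genes (Cd74 3433 RPKTM, against 11448 to 24710 in the other 11), and it also had the lowest Clec4f (5205 RPKTM, against a median of 32025 over all 12). With the series entered 2 times, 6 of 7 genes were rhythmic with peaks at ZT10 or ZT13, where 20.7% of transcripts were, and 0 of 7 with the series entered once, where 3.18% were, or by the cosine fit, which called 0% of genes (2 of the 7 had an unadjusted p under 0.05). The count was 3 without ZT22 replicate 2, ZT10 replicate 2 or ZT10 replicate 3. Ciita, the gene not called, had time point means within a ratio of 1.3. Among the Kupffer markers, 9 of 10 were rhythmic in ScapKO LMs by the same rule.

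In ScapKO hepatocyte libraries 0 of 7 genes were rhythmic, where 18.5% of transcripts were, and 1 was without ZT22 replicate 2. None was with the series entered once, where 4.54% of transcripts were, or by the cosine fit, where 1.85% of genes were (0 of the 7 at an unadjusted p under 0.05). Cd74 was 83.1, 892 and 179 RPKTM at ZT4, 115, 155 and 261 at ZT10, 280, 117 and 149 at ZT16 and 33.3, 303 and 132 at ZT22. ZT4 replicate 2 had the highest level of all 12 libraries for H2-Aa (252 RPKTM), H2-Ab1 (235), H2-Eb1 (215) and Cd74 (892). Its Clec4f was 267 RPKTM, near the median of 216, but the mean log2(RPKTM + 1) of its 10 Kupffer markers was high (6.606). Only ZT10 replicate 3 (6.612) and ZT22 replicate 2 (7.697) had a higher mean. Its Ccr2 (17.0) and Itgax (16.4) were the highest of the 12 and its Lyz2 (243) was below that of ZT22 replicate 2 only. Ccr2 and Itgax are single genes of the monocyte and dendritic cell lists, whose other genes are not given here by library. ZT22 replicate 2 had the highest Clec4f (1024) and Stab2 (2753) and the second highest Cd74 (303). The log2 ratio of the 4 higher class II genes to the Kupffer markers was −0.02 ± 0.71 in these libraries (SD, n = 12), with a highest value of 1.75 in ZT4 replicate 2. Xist, which male cells lack, was 130 RPKTM in ZT16 replicate 3 and at most 15.0 in the other libraries of the set, so that library went against its male label. Its Cd74 was 149 RPKTM.

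**Figure D5:**
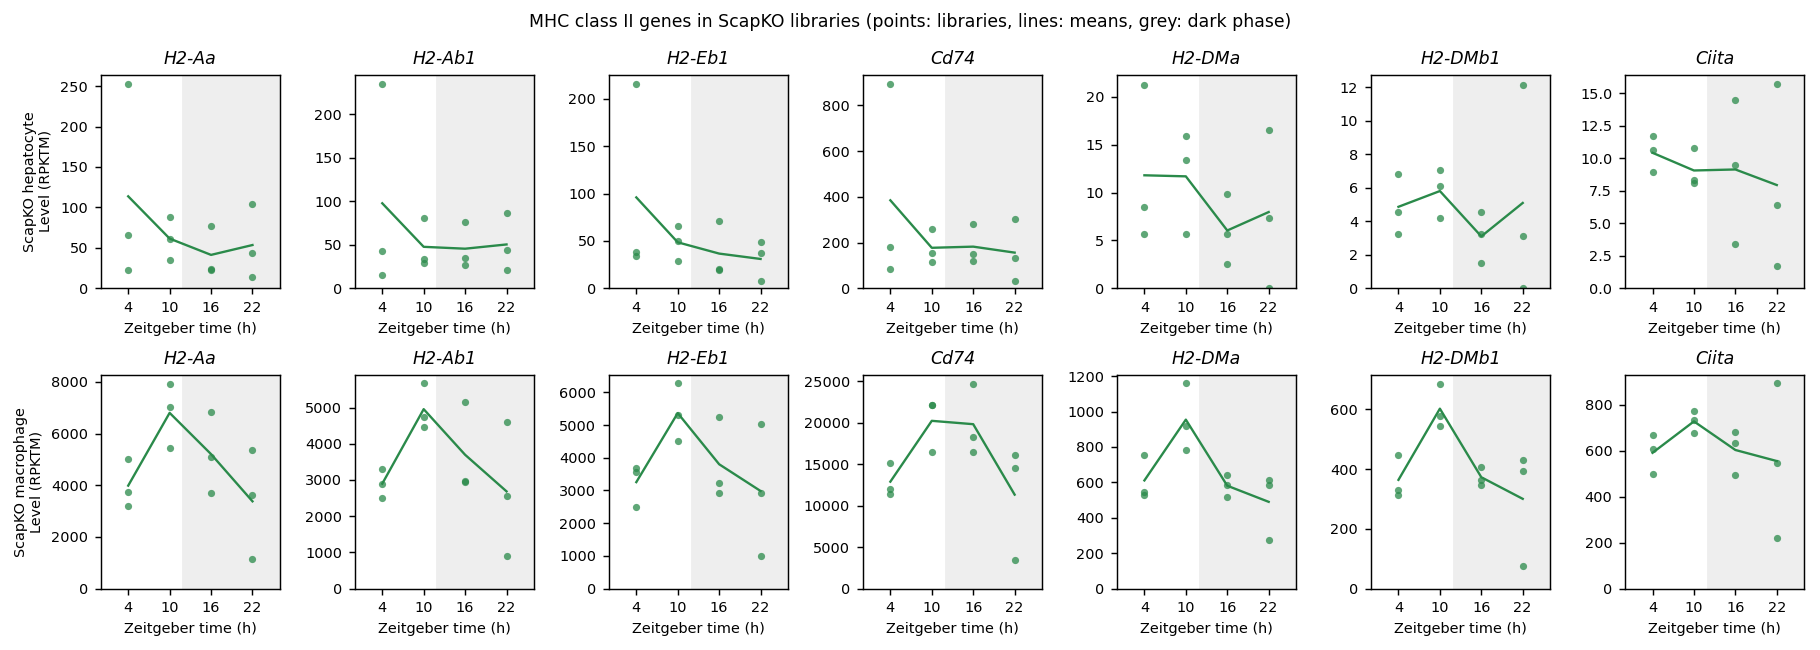
Level of the 7 genes in RPKTM (linear axes from 0) against Zeitgeber time in ScapKO hepatocyte (top) and macrophage (bottom) libraries; points are libraries (3 per time), lines are means and grey marks the dark phase. The top row has 1 high library at ZT4 (Cd74 892 RPKTM) and the bottom row 1 low library at ZT22 (Cd74 3433 RPKTM).

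The 3 chains and Cd74 varied together across libraries, and Ciita less so. Pearson's r of log2(RPKTM + 1) among H2-Aa, H2-Ab1, H2-Eb1 and Cd74 was 0.91 to 0.95 over the 36 hepatocyte libraries, 0.92 to 0.97 over the 36 macrophage libraries, 0.82 to 0.94 over the 12 ScapKO hepatocyte libraries and 0.92 to 0.99 over the 12 ScapKO macrophage libraries. Pairs with Ciita had r of 0.54 to 0.70, 0.38 to 0.66, 0.14 to 0.46 and 0.74 to 0.94 in the same order. These points share library, genotype and time of day, and the values are descriptions. The order of levels within the set was the same in Control hepatocytes and Control LMs at the top: Cd74 was highest, then H2-Aa, H2-Ab1 and H2-Eb1 (means of 95.4, 40.8, 34.7 and 26.7 RPKTM in hepatocytes and 1575, 632, 363 and 314 in LMs). The 3 chains differed by less than their SDs over libraries in hepatocytes (28.9, 22.6 and 20.5 RPKTM). Those SDs include the time of day and do not measure the difference between chains within a library. The log2 ratio of H2-Aa to H2-Ab1, the 2 chains of I-A, was 0.16 ± 0.29 in Control, 0.33 ± 0.62 in RevDKO and 0.59 ± 0.26 in RevScapTKO hepatocytes, and 0.78 ± 0.20, 0.76 ± 0.34 and 0.83 ± 0.14 in LMs of the same genotypes (SD, n = 12 each).

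The genes whose pattern was most like the mean z-score of the 7, by Pearson's r over the 36 hepatocyte libraries, were Axl (r = 0.963), Laptm5 (0.951), Clec4f (0.950), Adgre5 (0.947) and Lgmn (0.945). Over the 36 macrophage libraries they were Lgmn (0.956), Clec4f (0.949), C1qb (0.938), Ctsb (0.938) and C1qa (0.936). Over the 12 ScapKO hepatocyte libraries they were Lyz2 (0.944), Tbc1d9 (0.911), Naip2 (0.902), Hk2 (0.901) and Myof (0.898), and over the 12 ScapKO macrophage libraries Psmb5 (0.965), Cib2 (0.959), Zfp995 (0.959), Slc25a3 (0.958) and Cops9 (0.957). Alb had an r of 0.25 in the hepatocyte and 0.14 in the macrophage table of 3 genotypes. In macrophage libraries Cd79a, a B cell gene, had an r of 0.02 and the dendritic cell receptor gene Flt3 0.17.

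Other genes of antigen presentation rose in part with the class II genes in RevScapTKO hepatocyte libraries. Of the genes that act on class II promoters, on Ciita or on class II turnover, 18 of 22 listed symbols (older names included) were tested, and 8 rose against RevDKO with 0 lower (13.5% of all genes rose). March1, a ubiquitin ligase that takes class II off the cell surface, rose by 1.23 ± 0.28 log2 units (limma adjusted p = 0.00172), Il10ra, a receptor chain for interleukin 10, by 0.98 ± 0.21, and Ifngr1, a receptor chain for interferon γ, by 0.77 ± 0.18. Against Control 7 rose and 1 fell. March1 rose by 1.2 ± 0.28 and Il10ra by 1.13 ± 0.21. Nfyb, a subunit of the Y box factor, was the 1 gene that fell (−0.44, adjusted p = 0.00472). None of the 18 passed in RevDKO against Control.

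Of the lysosomal genes that cut antigen and the invariant chain, 10 of 11 were tested, and 5 rose and 1 fell in either RevScapTKO comparison. Ctss, which degrades the invariant chain, rose by 1.54 ± 0.27 log2 units against RevDKO (limma adjusted p = 0.000131) and 1.24 ± 0.27 against Control. Lgmn, an asparaginyl endopeptidase, rose by 0.90 ± 0.16 and 0.87 ± 0.16, Ifi30, a thiol reductase, by 0.64 ± 0.17 against RevDKO, and Ctsl, another cathepsin, by 0.94 ± 0.13 against Control. The genes that fell were Ctsf, which fell by 0.36 against RevDKO, and Cst3, a cathepsin inhibitor, which fell by 0.44 against Control. Ctsl was the 1 gene of this list to pass in RevDKO against Control hepatocytes (0.62 ± 0.13, adjusted p = 0.00318). Ctss, Lgmn and Ifi30 are abundant in macrophages as well.

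Of the costimulation genes, 5 of 6 were tested and 3 rose against RevDKO: Icosl by 1.22 ± 0.34, Cd274 by 0.91 ± 0.25 and Cd86 by 0.74 ± 0.21 (limma adjusted p = 0.00810, 0.00726 and 0.0107), of which Icosl and Cd86 also rose against Control. Class I genes moved less against RevDKO than the costimulation genes and the 7 class II genes, by list median. All 12 were tested, and 5 rose against RevDKO, among them Psmb8, an immunoproteasome subunit (0.51 ± 0.18), H2-D1, a class I heavy chain (0.48 ± 0.15), and Nlrc5, the class I counterpart of Ciita (0.46 ± 0.17). Against Control Nlrc5 (0.49 ± 0.17) and Tap1 (0.36 ± 0.13) rose, and the class I heavy chain gene H2-K1 fell by 0.52 on the log2 scale (adjusted p = 0.000531). The list medians were 0.28 for regulators, 0.28 for lysosomal genes, 0.74 for costimulation and 0.33 for class I genes against RevDKO, beside 0.94 for the 7 class II genes and −0.03 for all genes tested.

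The remaining class II genes were low. Of 7 listed symbols 5 were in the tables, and none passed the filter in hepatocyte libraries, where H2-Ob, a chain of the DM inhibitor DO, had means of 1.1, 1.2 and 2.10 RPKTM in Control, RevDKO and RevScapTKO mice. H2-Ea-ps, the defective I-E α chain gene, had a mean of at most 0.65 RPKTM in any genotype of the 2 tables of 3 genotypes. In LMs 4 were tested and 0 passed in any comparison, with H2-Ob at 14 ± 10.4, 9.23 ± 6.34 and 15.5 ± 9.52 RPKTM (SD, n = 12 each). In ScapKO LMs H2-Ob was 204 ± 93.9 and H2-DMb2 103 ± 37.5 RPKTM, and Cd79a ran from 44.8 to 181 RPKTM in the same libraries. Of the other antigen presentation lists in LMs, Ctsl (0.65 ± 0.16, limma adjusted p = 0.0126) and Nlrc5 (0.70 ± 0.19, adjusted p = 0.0272) rose in RevScapTKO against Control, and none of those genes passed in the other 2 comparisons.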

How the data were processed

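The authors mapped reads to mm9 with STAR and counted them with HOMER (versions not given in the sources used here), and deposited 4 tables of transcript levels as RPKTM (RPKM times 10), quantile normalized within a table. Whether counting used strand is not stated. The sorted values of all libraries of a table were identical, so depth and counting error are unknown and levels were compared within a table only. Columns with no sample numbered 0. Authors' pooled values or comparisons were not used.

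From these values, log2(RPKTM + 1) was fitted with limma 3.58.1 (R 4.3.3) with a mean for each genotype and time point, a variance trend and Benjamini-Hochberg adjustment over all genes with at least 3 libraries over 5 RPKTM. JTK_CYCLE was rewritten in Python 3.11.15 and checked on simulated data, with at least 2 libraries over 5 RPKTM, 7 patterns and p corrected over them. Groups came from the sample labels. All 7 class II genes are named, with at most 3 called genes of each list per comparison and the 5 genes of highest correlation per table. The genes and lists were chosen with earlier results of these data known. Alternatives were the pseudocount, the filter, testing all transcripts, the genotypes fitted, a replicate block, marker covariates and leaving out each library. With all transcripts tested, each of the 7 genes kept the same transcript, so another transcript of a gene was not tried. Some listed genes are not reported here by name.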

Additional observations from a re-analysis of the deposited data

How the results depend on the processing

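The counts of class II genes called were recomputed under 13 alternatives of the limma fit and 5 of JTK_CYCLE, and with each library left out. For RevDKO against Control hepatocytes and for the tests of changed rhythm every alternative gave a count of 0. The 6 genes called for RevScapTKO against Control hepatocytes became 0 with the Kupffer marker covariate and 1 with the dendritic one, and so did the 6 calls at single times (0 and 1). The 5 called against RevDKO became 0 under either covariate, and the count at single times, 0 in the report, was 1 with the hepatocyte marker covariate, which was added after seeing the data. In LMs, the hepatocyte marker covariate gave 3 calls for RevScapTKO against Control (Cd74 −0.79, H2-DMa −0.80 and H2-DMb1 −1.05). The cause of these changes was not tested.

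Same-numbered libraries of 2 genotypes at a time point had deviations correlated over 0.1 in 13 of 36 pairs in hepatocytes and 15 of 36 in LMs. Their median r was 0.05 and 0.09, against −0.03 and −0.05 for pairs with other numbers, so same-numbered libraries were slightly more alike. What a replicate number marks is not stated. With a replicate block, counts of genes called stayed at 0, 5 and 6 in hepatocytes and 0 in LMs, the calls at single times became 8 for RevScapTKO against Control and 1 against RevDKO, and no paired reading is made.

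Rhythmic counts fell with the series entered once to 2 (RevDKO hepatocytes), 0 (RevScapTKO hepatocytes), 1 (RevDKO LMs) and 0 (ScapKO LMs), and with the cosine fit to 1, 0, 0 and 0. Adjustment over transcripts gave 2 in RevScapTKO hepatocytes and 3 in ScapKO LMs, and a ratio over 2 gave 2 in ScapKO LMs. In Cd74 of ScapKO LMs the single series had a JTK_CYCLE p of 0.0152 (exact null distribution) with a best period of 18 h, which the rule does not count.

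Leaving out 1 library gave 4 to 6 genes against RevDKO and 6 to 6 against Control in RevScapTKO hepatocytes, with 0 to 3 and 3 to 8 calls at single times, and 0 to 1 for RevDKO against Control LMs. The calls at single times against RevDKO were 1 without RevDKO ZT10 replicate 2 or RevScapTKO ZT22 replicate 1, 2 without RevScapTKO ZT10 replicate 2 or ZT16 replicate 1, and 3 without RevScapTKO ZT4 replicate 1. Rhythmic counts ranged over 6 to 7 (Control), 4 to 5 (RevDKO) and 2 to 5 (RevScapTKO) in hepatocytes, 0 to 3, 4 to 6 and 0 to 1 in LMs of those genotypes, and 0 to 1 and 3 to 7 in ScapKO hepatocytes and LMs. The Ciita call against RevDKO was lost in 16 such fits and with a pseudocount of 0.1, no filter, only the 2 genotypes fitted, or the B cell, dendritic, hepatocyte or Kupffer covariate. H2-DMa gained a call against RevDKO without RevDKO ZT10 replicate 1 or RevScapTKO ZT22 replicate 1, and H2-DMb1 in 5 such fits.

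With another filter, all transcripts, a replicate block, only the 2 genotypes fitted or no variance trend, the size of a change stayed as in the main fit. In those fits only the call could differ, and their kept directions are no check. Of 537 single gene changes under other alternatives, 481 kept direction and side of the threshold, 26 lost the call, 3 gained it and 27 changed sign, all 27 with a marker covariate. In hepatocytes with the Kupffer covariate these were H2-Ab1 (−0.0203), H2-DMa (−0.0172) and H2-DMb1 (−0.31) against RevDKO and H2-Ab1 (−0.15) and H2-DMb1 (−0.72) against Control, and with the dendritic one H2-DMb1 (−0.36) against Control. In LMs, RevScapTKO against RevDKO, they were H2-Aa (−0.47), H2-Ab1 (−0.54), H2-Eb1 (−0.26), Cd74 (−0.59) and H2-DMb1 (−0.62) with the hepatocyte covariate, H2-Aa (−0.32), H2-Ab1 (−0.32), H2-Eb1 (−0.25), Cd74 (−0.30), H2-DMb1 (−0.51) and Ciita (−0.0161) with the dendritic one, and H2-DMb1 (−0.17) with the B cell one. Ciita against Control was −0.00109 with the hepatocyte and −0.34 with the dendritic covariate. With the Kupffer covariate, added after seeing the data in LMs, RevDKO against Control turned to 0.00565 (H2-Aa), 0.0386 (H2-Eb1) and 0.0360 (H2-DMa), and RevScapTKO against Control to 0.26 (H2-Aa), 0.17 (H2-Ab1), 0.32 (H2-Eb1) and 0.20 (Cd74). Leaving out 1 library changed the sign in 27 of 1512 values, none of them called: H2-Ab1 −0.14 to 0.0740 and Ciita −0.0400 to 0.22 in RevDKO against Control hepatocytes, H2-Eb1 −0.19 to 0.0862 in RevScapTKO against Control LMs, and H2-DMa −0.13 to 0.0617 and H2-DMb1 −0.0912 to 0.21 in RevScapTKO against RevDKO LMs.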
